A study of Mus musculus with 10 samples.

Results

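The 9 genes Ccng2, Fbxo32, Cd55, Tmem71, Cep97, Rflnb, Tdrp, Fam78a and Tcp11l2 were described here across resting and stimulated CD4-positive spleen cells of NOD and B10 mice. They were chosen by their log2 difference between stimulated and unstimulated cells, out of 19938 measured genes, as falling steeply in both strains. The falls themselves are therefore descriptions, with no test. The standard NOD strain develops autoimmune diabetes spontaneously, and B10 mice do not. That is background only, and diabetes in the NODk mice used here was not examined. The 4 groups were stimulated NOD cells (T1, n = 2 arrays), unstimulated NOD cells (T0, n = 3), stimulated B10 cells (T1, n = 2) and unstimulated B10 cells (T0, n = 3). All came from female mice aged 8 weeks, with the genotypes named NODk and B10Br. Stimulated cells were cultured for 4 hours with 10 ng/ml PMA, a phorbol ester that activates protein kinase C, and 1 uM ionomycin, which lets calcium into the cell. T0 is called the basal state, although the protocol can also be read as 4 hours of culture without the drugs. No source says which animal each array came from, so the p-values measure the spread between these arrays. T1 replicate 1 of both strains is not analysed here.

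Resting T cells keep FOXO transcription factors in the nucleus, where they drive genes of quiescence, recirculation and survival. Signals through the T cell receptor, or drugs that imitate them, lead to export of FOXO factors, and cells leave the resting state and grow. Ccng2 and Fbxo32 are textbook targets of FOXO factors in other cell types. The remaining genes serve as a complement regulator (Cd55), a centriole cap protein (Cep97), an actin organiser (Rflnb) and a testis-associated protein (Tdrp), while Tmem71, Fam78a and Tcp11l2 are less well understood.

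Promoter sequence was available for 6 of the 9 genes from RefSeq (GRCm38.p6), as 9 windows of which the 250 bases before each start site were searched on both strands. Fbxo32, Tdrp and Tmem71 had no window, so their promoters were not searched. The FOXO motif GTAAACA was in none of them, nor was the E-box CACGTG, where 3.17% and 6.02% of 32851 such windows hold them. The ETS motif CCGGAAG, present in 6.91% of all windows, was in the window of Ccng2 alone, on the other strand, starting 229 bases before the start site. A missing match says only that these letters are not in these bases. The windows held 47.2% to 76% G and C, against a median of 52.4% over all windows, with Cep97 the lowest and Rflnb the highest. The sequences of Ccng2 (chr5:93267323-93267572, + strand), Cd55 (chr1:130462745-130462994, - strand) and Tcp11l2 (chr10:84576697-84576946, + strand) are printed as the window with the match, that of the most even fall and that of the gene that differed between strains. They run 5′ to 3′ on the gene's strand, with the reverse complement of the ETS motif in capitals.
Ccng2: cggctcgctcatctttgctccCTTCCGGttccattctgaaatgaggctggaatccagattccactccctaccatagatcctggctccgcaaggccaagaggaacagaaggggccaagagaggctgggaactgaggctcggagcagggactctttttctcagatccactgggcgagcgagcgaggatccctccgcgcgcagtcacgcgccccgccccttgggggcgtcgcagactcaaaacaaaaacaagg
Cd55: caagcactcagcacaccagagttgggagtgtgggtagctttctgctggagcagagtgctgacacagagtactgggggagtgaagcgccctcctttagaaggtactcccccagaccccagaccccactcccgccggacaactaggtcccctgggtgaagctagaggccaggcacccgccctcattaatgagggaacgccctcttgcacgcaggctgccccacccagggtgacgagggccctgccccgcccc
Tcp11l2: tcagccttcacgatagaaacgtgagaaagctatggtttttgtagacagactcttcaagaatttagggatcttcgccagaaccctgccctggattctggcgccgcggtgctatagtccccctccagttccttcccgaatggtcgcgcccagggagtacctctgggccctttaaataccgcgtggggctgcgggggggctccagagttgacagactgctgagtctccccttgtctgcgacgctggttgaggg

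Levels below are log2 intensities from Affymetrix arrays, on which a difference of 1 is a 2-fold change. Each of the 9 genes was read by 1 probe set, and levels of different probe sets are not compared. The median probe set of an array lay between 6.18 and 6.23, and arrays of 1 group correlated at 0.985 to 0.993, against 0.943 to 0.984 for arrays of different groups. The cells carried CD4 T cell markers, whose mean log2 level over 7 genes was 9.36 to 10.46 on NOD arrays and 9.62 to 10.49 on B10 arrays. Markers of other cells were present too. Erythroid markers (6 measured) set the B10 arrays apart from one another: their mean log2 level was 9.29 and 9.39 on the B10 arrays of replicate 3 and 6.97 to 7.89 on the other B10 arrays. On NOD arrays it was 10.07 to 10.69, above every B10 array, so a covariate cannot fully separate this level from strain. For Tcp11l2 at T1 the strain comparison is therefore given also with this level as a covariate and without both B10 arrays of replicate 3. For other comparisons these settings are named where a call ended or a sign turned. Omission of both B10 arrays of replicate 3 leaves B10_T1 replicate 2 alone in its group.

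Ccng2 and Fbxo32 belong to the control of growth. Ccng2 encodes cyclin G2, an unusual cyclin that accompanies exit from the cell cycle. Its level was 7.18 and 6.76 in stimulated NOD cells, against 10.32, 10.34 and 10.09 in unstimulated NOD cells. Stimulated B10 cells had 7.11 and 7.43, against 10.58, 10.69 and 10.79 in unstimulated B10 cells. Stimulated and unstimulated arrays were thus separated by a wide gap in both strains. The log2 difference was -3.28 ± 0.14 in NOD and -3.42 ± 0.14 in B10 (standard error from limma, as for all differences below), which left 10.3% and 9.37% of the unstimulated signal. Fbxo32 encodes atrogin-1, the substrate-binding subunit of an SCF ubiquitin ligase best known from muscle wasting. It had 6.09 and 5.74 in stimulated NOD cells, against 9.04, 9.26 and 8.94 in unstimulated ones. The B10 values were 5.77 and 5.85 after stimulation, against 9.11, 9.10 and 9.28 before it. Arrays of both strains lay close together within each state. The differences were -3.16 ± 0.13 in NOD and -3.36 ± 0.13 in B10.

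**Figure D1:**
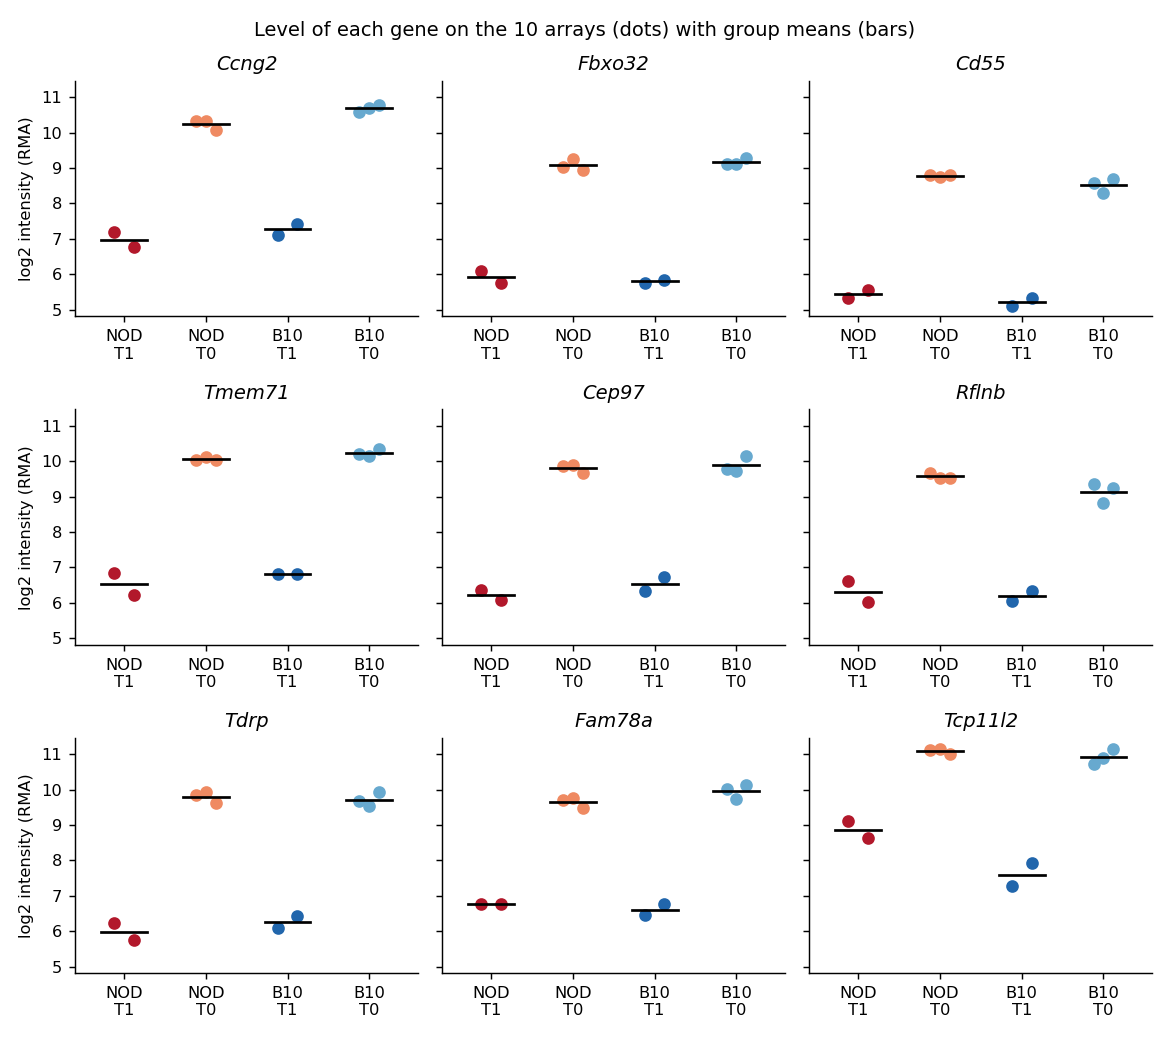
Log2 intensity (vertical axis) of each of the 9 genes on all 10 arrays, as dots, with a bar at the group mean; NOD T1, NOD T0, B10 T1 and B10 T0 run from left to right. Every T1 array lies below every T0 array of the same strain, and Tcp11l2 at T1 is the panel in which NOD (9.11 and 8.63) stands well above B10 (7.28 and 7.91).

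Cd55 and Tmem71 encode membrane proteins. Cd55, the decay-accelerating factor, breaks up the convertases that amplify complement on the cell's own surface. Its level was 5.32 and 5.55 in stimulated NOD cells, against 8.82, 8.74 and 8.80 in unstimulated NOD cells. In B10 cells it was 5.11 and 5.33 at T1, against 8.57, 8.31 and 8.71 at T0. The differences of -3.35 ± 0.13 in NOD and -3.31 ± 0.13 in B10 were the most alike of any of the 9 genes, and 9.82% and 10.1% of the signal was left. Tmem71, a transmembrane protein, had 6.84 and 6.21 in stimulated NOD cells, against 10.03, 10.12 and 10.03 in unstimulated ones. B10 cells had 6.83 and 6.80, against 10.20, 10.14 and 10.35. The stimulated NOD arrays were further apart than those of any other group for this gene. The differences were -3.54 ± 0.15 in NOD and -3.42 ± 0.15 in B10.

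Cep97 and Rflnb encode proteins of the centriole and the actin skeleton. Cep97 works with CP110 (gene Ccp110) at the end of the centriole, where the pair holds back the outgrowth of a cilium. Its level was 6.36 and 6.08 in stimulated NOD cells, against 9.88, 9.88 and 9.66 in unstimulated NOD cells. B10 cells gave 6.32 and 6.72 after stimulation, against 9.78, 9.71 and 10.15 before. The differences were -3.58 ± 0.16 in NOD and -3.36 ± 0.16 in B10. Rflnb encodes refilin B, a partner of filamin in bundling actin. It had 6.61 and 6.02 in stimulated NOD cells, against 9.67, 9.52 and 9.52 in unstimulated ones. The B10 levels were 6.04 and 6.33, against 9.35, 8.82 and 9.25. Its difference in B10, -2.95 ± 0.18, was the smallest of the 9 in that strain, and in NOD it was -3.26 ± 0.18.

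Tdrp, Fam78a and Tcp11l2 complete the group. Tdrp, named as a testis development-related protein, had 6.22 and 5.74 in stimulated NOD cells, against 9.86, 9.92 and 9.63 in unstimulated NOD cells. B10 cells had 6.10 and 6.43, against 9.68, 9.53 and 9.95. It showed the steepest fall of the 9 genes in both strains, with differences of -3.82 ± 0.17 in NOD and -3.45 ± 0.17 in B10, and 7.06% and 9.12% of the signal left. Fam78a had 6.76 on both stimulated NOD arrays, against 9.71, 9.78 and 9.47 in unstimulated NOD cells. In B10 it had 6.46 and 6.76 at T1, against 10.02, 9.72 and 10.14 at T0. Both T1 groups thus ended at a like level, with differences of -2.89 ± 0.14 in NOD and -3.35 ± 0.14 in B10. Tcp11l2 is named for its likeness to Tcp11, a gene of the mouse t-complex. It had 9.11 and 8.63 in stimulated NOD cells, against 11.12, 11.14 and 11.02 in unstimulated ones. B10 values were 7.28 and 7.91, against 10.72, 10.88 and 11.16. Its difference was -2.23 ± 0.19 in NOD, the shallowest of the 9, and -3.32 ± 0.19 in B10. In NOD 21.4% of the unstimulated signal was left and in B10 10.0%.

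**Figure D2:**
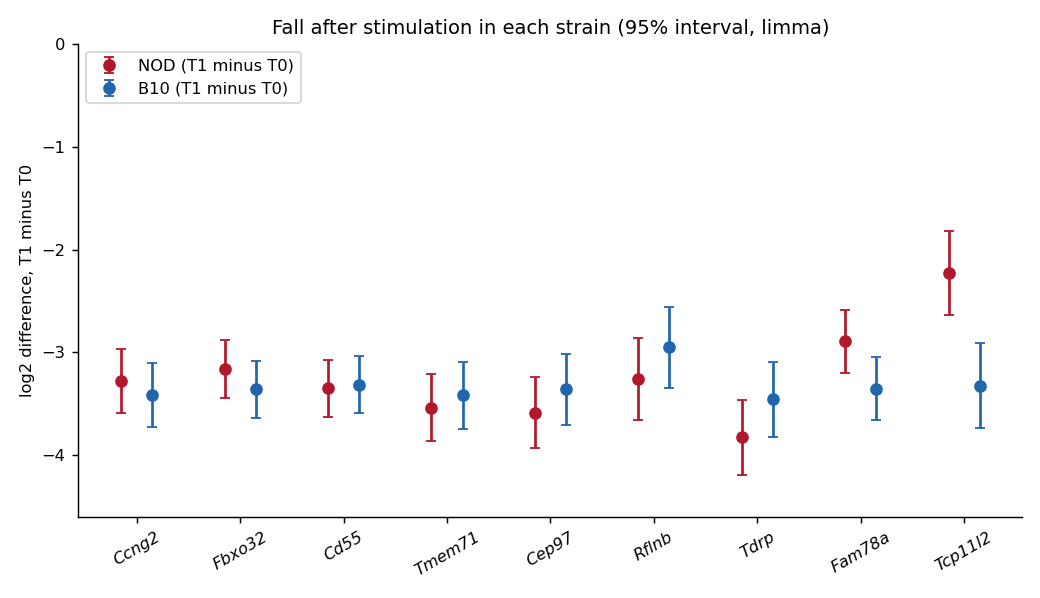
Log2 difference T1 minus T0 (vertical axis) of each of the 9 genes in NOD (left, red) and B10 (right, blue), with 95% intervals from limma. B10 differences lie between -3.45 and -2.95, and NOD differences between -3.82 and -2.23, with Tcp11l2 at the shallow end.

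In the order of levels, both unstimulated groups stood above both stimulated groups for each of the 9 genes. Among all genes, 35.5% changed in NOD and 31.8% in B10 (limma, adjusted p under 0.05): 19.5% and 18.1% fell and 16.1% and 13.7% rose. At an unadjusted p under 0.05 the shares were 44.5% in NOD and 38.2% in B10, and arrays of T1 and T0 did not overlap for 56% and 52.4% of genes. Nothing is read from these shares for the 9 genes. The median log2 difference over the 9 was -3.28 in NOD and -3.36 in B10, beside 0.081 and 0.031 over all genes; the choice of the genes fixed this contrast. After stimulation the mean levels of Cd55 (5.44 in NOD and 5.22 in B10) and Fbxo32 (5.92 and 5.81) lay below the array medians. So did that of Tdrp in NOD (5.98). In bulk samples, fewer cells of a type and less RNA per cell cannot be told apart.

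The choice had no numerical limit. When genes were ordered by the smaller of their falls in both strains, 8 of the 9 ranked 3rd to 16th of 19938 genes, and Tcp11l2 ranked 61st with -2.23. Fbxl20 stood just before it, also with -2.23, and Vcam1 with -2.22 was 2 places after it. Outside the 9, 12 genes fell at least as far as the smallest of the group's falls in each strain. S1pr1, the receptor for egress from lymphoid organs, headed them (-4.29 ± 0.15 in NOD and -4.09 ± 0.15 in B10), followed by the B cell receptor chain Cd79b (-3.78 and -3.57). The others were Card6, Slc40a1, Ms4a6c, Pdcd4, Ifngr1, St8sia1, S1pr4, Ltb and Scd2, and the small RNA gene Mir181b-1, which was named after its values were seen.

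Likeness of pattern was measured as the root mean square difference between 2 genes over the 10 arrays, after centring each gene on its own mean. Among the 9, Tdrp and Cep97 were closest (0.117 on the log2 scale), and Tcp11l2 was the most distant, 0.449 from its nearest fellow, Rflnb. Card6, a caspase recruitment domain protein, was the closest outside gene for Fbxo32 (0.128), Cep97 (0.196) and Tdrp (0.254). Pdcd4, an inhibitor of translation initiation, was closest to Tmem71 (0.197). Ms4a6c was closest to Cd55 (0.173), S1pr4, another sphingosine phosphate receptor, to Fam78a (0.166), and Ifngr1, a chain of the interferon gamma receptor, to Rflnb (0.189). St8sia1, a sialyltransferase, was closest to Ccng2 (0.222), and Hbp1, a repressor that slows the cell cycle, to Tcp11l2 (0.315). These distances describe the 10 arrays and carry no test.

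Single arrays moved the 9 genes together within their groups. B10_T0 replicate 3 had the highest unstimulated B10 level for 8 of the 9 genes, and B10_T1 replicate 3 the higher stimulated B10 level for 8. NOD_T1 replicate 2 was higher than replicate 3 for 8 of the 9. The mean deviation from the group mean was 0.166 for NOD_T1 replicate 2 and 0.141 for B10_T1 replicate 3, against 0.0301 and 0.00345 over the 3130 other genes called as fallen in both strains. Among unstimulated arrays it ran between -0.104 and 0.0665 in NOD and between -0.148 and 0.171 in B10. The order of the NOD_T1 arrays was not particular to the 9. Of the 12 outside genes with falls as large, S1pr1 (7.80 and 7.27) and Pdcd4 (8.31 and 7.61) were also higher on NOD_T1 replicate 2 than on replicate 3. So were St8sia1, Card6, Mir181b-1, Ifngr1, S1pr4 and Ltb, while Cd79b, Slc40a1, Ms4a6c and Scd2 were lower. B10_T1 replicate 3 was higher than replicate 2 for Cd79b, Mir181b-1, Card6, Slc40a1, Ms4a6c, St8sia1 and S1pr4. It was lower for S1pr1, Pdcd4, Ifngr1, Ltb and Scd2. B10_T0 replicate 3 was the highest of its group for S1pr1, Mir181b-1, Card6, Slc40a1, Ms4a6c and S1pr4, and not for the others. The share of all genes with such orders was not counted.

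Strain comparisons, which the choice of the genes did not use directly, asked whether NOD and B10 cells differ in the level of these genes. At T1, 1 of the 9 genes passed the threshold (limma, Benjamini-Hochberg over all genes, adjusted p under 0.05), which is 11.1%, against 3.6% of all genes (1.77% higher in NOD and 1.83% lower, and 16.4% at an unadjusted p under 0.05). This was Tcp11l2, higher in NOD than in B10. At T0, 0 of the 9 passed with limma (4 at an unadjusted p under 0.05), where 5.79% of all genes did so (3.44% higher in NOD and 2.35% lower, and 15.8% unadjusted). No second tool was run, and limma's own other settings gave 0 to 3.

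Stimulated NOD cells kept 2.41 times as much Tcp11l2 signal as stimulated B10 cells. Means were 8.87 ± 0.34 in NOD and 7.60 ± 0.45 in B10 (SD, n = 2 each), and the arrays of both strains did not overlap. The log2 difference was 1.27 ± 0.21 with a 95% interval of 0.82 to 1.72 (limma, adjusted p = 0.00587). At T0 the levels were 11.09 ± 0.06 in NOD and 10.92 ± 0.22 in B10 (SD, n = 3 each), and the difference of 0.17 ± 0.17 did not pass (limma, adjusted p = 0.748). The response in NOD minus that in B10 was 1.10 ± 0.27 (95% interval 0.51 to 1.68), which did not pass over all genes (limma, adjusted p = 0.155, unadjusted p = 0.0014). Without B10_T1 replicate 3, which leaves B10_T1 replicate 2 alone in its group, this difference of responses was 1.41. The T1 call ended without B10_T1 replicate 2 (0.95, adjusted p = 0.062), with the erythroid covariate (0.92, adjusted p = 0.135) and with only the arrays of the T1 groups (1.27, adjusted p = 0.0667). Without both B10 arrays of replicate 3 the T1 difference was 1.58. That fit leaves B10_T1 replicate 2, with the lower Tcp11l2 level (7.28 against 7.91), alone in its group. Over the alternatives run the T1 difference lay between 0.92 and 1.58.

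Erythroid markers were also higher on the NOD arrays, with a median log2 difference between strains of 2.06 at T1 and 2.50 at T0 over 6 markers. At T1, 0 of 6 passed, and at T0 all 6 were called higher in NOD. Their mean log2 level was 10.22 and 10.64 on the stimulated NOD arrays, on which Tcp11l2 was 9.11 and 8.63. On the stimulated B10 arrays it was 7.43 and 9.39, with Tcp11l2 at 7.28 and 7.91. Within NOD the array with more erythroid signal had less Tcp11l2, and within B10 it had more. Because the erythroid level of every NOD array lay above that of every B10 array, the covariate cannot fully separate these cells from strain. Their part in the difference was not tested.

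**Figure D3:**
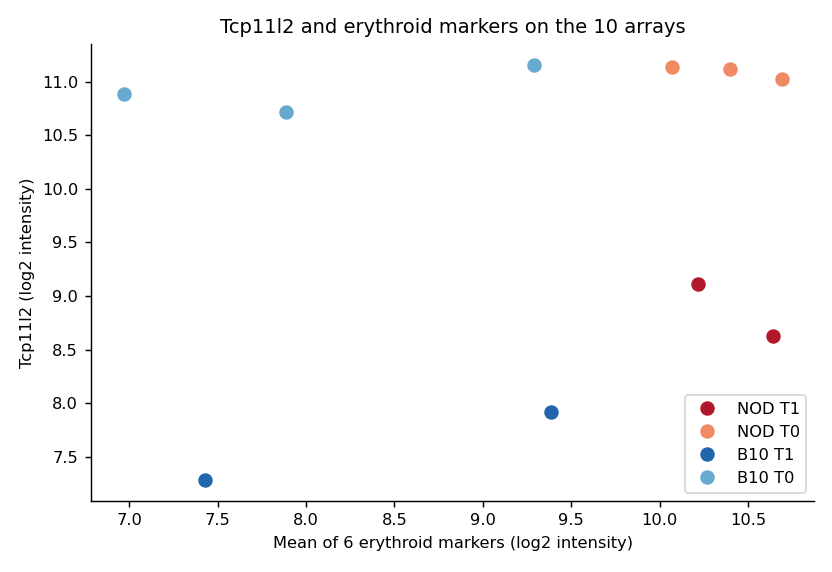
Log2 intensity of Tcp11l2 (vertical axis) against the mean log2 intensity of 6 erythroid markers (horizontal axis) on the 10 arrays, coloured by group. Stimulated NOD arrays (9.11 and 8.63) lie above stimulated B10 arrays (7.28 and 7.91), and the B10 arrays of replicate 3 (erythroid level 9.29 and 9.39) lie nearer to the NOD arrays on the horizontal axis than the other B10 arrays do.

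The other 8 genes showed strain differences of -0.30 to 0.22 at T1 and of -0.44 to 0.43 at T0, none of which passed. Ccng2 came nearest at T0, with a log2 difference of -0.44 ± 0.13 (95% interval -0.72 to -0.16, limma, adjusted p = 0.0726) with no overlap between the strains' arrays. It passed with trend and robust settings, with array weights, with only the T0 arrays, and without either stimulated NOD array, and its adjusted p over the alternatives was 0.00613 to 0.37. Rflnb had a difference of 0.43 ± 0.16 at T0 (limma, adjusted p = 0.19) and Cd55 of 0.26 ± 0.11 (limma, adjusted p = 0.292), and both passed with array weights. Fam78a had a difference of -0.31 ± 0.13 at T0 (limma, adjusted p = 0.233). Arrays of both strains did not overlap for 4 of the 9 genes at T0, where 22.8% of all genes did not, and for 2 of 9 at T1, where 41.8% did not. In the difference of responses, 0 of the 9 passed with limma (2 at an unadjusted p under 0.05, Tcp11l2 and Fam78a), against 0.246% of all genes (0.0953% with the higher response in NOD, and 9.23% unadjusted). Without NOD_T1 replicate 2, which leaves NOD_T1 replicate 3 alone in its group, the difference of Tmem71 at T1 was -0.60.

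**Figure D4:**
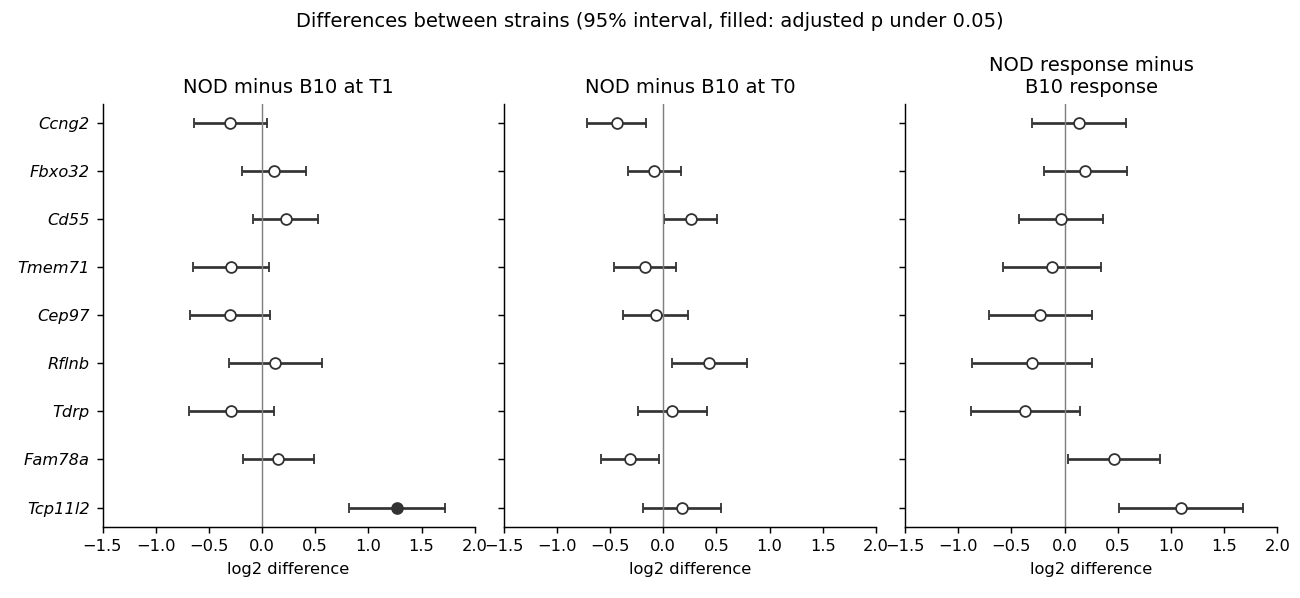
Log2 differences between strains (horizontal axis) for the 9 genes: NOD minus B10 at T1, NOD minus B10 at T0, and NOD response minus B10 response, with 95% intervals from limma. The filled point, Tcp11l2 at T1 (1.27), is the one with an adjusted p under 0.05.

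Genes related to the 9 by pathway were counted next, from lists chosen with earlier results of these data known, so the counts are descriptions. Of all genes, 19.5% fell and 16.1% rose in NOD, and 18.1% fell and 13.7% rose in B10. Of 19 measured FOXO factors, FOXO targets and cell cycle brakes of resting lymphocytes, 14 fell and 0 rose in NOD (median -1.06, against 0.081 over all genes), and 14 fell and 0 rose in B10 (median -1.20, against 0.031). Besides S1pr1, the interleukin-7 receptor Il7r fell (log2 differences of -3.12 in NOD and -2.49 in B10). Rbl2, a pocket protein that represses cell cycle genes, fell (-2.66 in NOD and -2.53 in B10). The cyclin-dependent kinase inhibitor Cdkn1b fell (-1.69 in NOD and -2.14 in B10). Insr, the insulin receptor, fell (-2.19 in NOD and -1.98 in B10), and Klhl24 (-2.72 in NOD and -2.57 in B10). Foxo1 itself did not pass (-0.19 in NOD, adjusted p = 0.327, and -0.06 in B10, adjusted p = 0.82), while Foxo4 fell (-0.68 and -1.02). Foxo3 fell as well (-0.54 and -1.20), a call that ended in NOD on omission of NOD_T0 replicate 1 or 3, or of either stimulated NOD array (-0.54 to -0.52), with arrays shifted to one 75th percentile (-0.42) and with every probe set tested. Klf2, a FOXO target that drives S1pr1, passed in NOD (-0.50) and had -0.35 in B10 (adjusted p = 0.0765), where it passed without B10_T0 replicate 2 (-0.45). The NOD call of Klf2 ended without NOD_T1 replicate 3 (-0.32) and with arrays shifted to one 75th percentile.

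No other cyclin measured from the list had a difference as large as that of Ccng2, which was itself chosen for a steep fall. Of 17 measured, 3 rose and 5 fell in NOD (median -0.095), and 3 rose and 5 fell in B10 (median -0.20). Ccng1, the closest relative of Ccng2, fell (-1.25 in NOD and -0.87 in B10). Ccnd3, a D-type cyclin that drives entry into the cell cycle, fell (-1.04 in NOD and -1.10 in B10), and Ccni (-0.78 in NOD and -0.61 in B10). Ccnd2, another D-type cyclin, rose by 1.08 in NOD and 0.78 in B10, and Ccnl1, a cyclin of RNA processing, by 0.54 and 0.81.

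Complement regulators other than Cd55 gave 2 that rose and 4 that fell of 11 in NOD (median -0.069), and 1 that rose and 2 that fell in B10 (median 0.0082). Over the alternatives, 0 to 2 rose and 1 to 5 fell in NOD. The lowest counts came from testing only genes above the median level, which leaves out dim members, and the rises numbered 1 without NOD_T0 replicate 1 or NOD_T1 replicate 2. Cd46 fell (-1.27 in NOD and -1.07 in B10), and Cr1l, which encodes the mouse regulator Crry (-1.34 in NOD and -1.09 in B10). Cd55b, the duplicate of Cd55, fell by 0.56 in NOD and had -0.14 in B10 (adjusted p = 0.456). Because Cd55 and Cd55b are near copies, probes may read both. Cr2, a complement receptor of B cells, rose by 1.37 in B10 and had -0.07 in NOD (adjusted p = 0.793).

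Among SCF ligase parts and atrophy ligases, 2 of 19 rose and 7 fell in NOD (median -0.061), and 3 rose and 6 fell in B10 (median -0.022). Without both B10 arrays of replicate 3 the falls in B10 numbered 3, and with arrays shifted to one 75th percentile those in NOD numbered 4. Fbxo25, the closest relative of Fbxo32, fell (-1.33 in NOD and -1.02 in B10). Fbxw11, which recognises phosphorylated inhibitors of NF-kB, rose by 1.07 in NOD and 1.44 in B10. Fbxo30, another ubiquitin ligase of muscle atrophy, rose by 1.12 in B10 and had 0.28 in NOD (adjusted p = 0.394). Trim63, the other classic muscle atrophy ligase, rose by 0.44 in NOD, a call lost on omission of unstimulated NOD array 1 or 3 or stimulated NOD array 3 (0.36 to 0.43), and had 0.24 in B10 (adjusted p = 0.215).

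Of 17 other centriole and cilium genes, 0 rose and 5 fell in NOD (median -0.068), and 2 rose and 7 fell in B10 (median -0.11). Ccp110, the partner of Cep97, did not pass (0.06 in NOD, adjusted p = 0.832, and 0.24 in B10, adjusted p = 0.434). Cep192, which recruits material to the centrosome, fell (-1.03 in NOD and -1.19 in B10), Cep120 (-0.81 in NOD and -1.08 in B10), and Ttbk2, the kinase that removes the Cep97 cap (-1.05 in NOD and -0.81 in B10). Between strains, 4 of the 17 were higher in NOD and 0 lower, both at T1 and at T0, where 1.77% and 3.44% of all genes were higher. They were Cep290 (0.99 at T1 and 1.22 at T0), Ttbk2 (0.84 and 1.07), Cep76 (0.85 and 0.97) and Kif24 (0.63 and 0.58). Cep97 had -0.30 ± 0.17 at T1 (limma, adjusted p = 0.442) and -0.07 ± 0.14 at T0 (limma, adjusted p = 0.905). With the erythroid covariate, Ttbk2 passed at both times and Cep290 at T0, and the other calls ended. Calls at T1 also ended for Cep76 without NOD_T1 replicate 3 or B10_T1 replicate 2 (0.69 and 0.62). For both Cep76 and Kif24 they ended with every probe set tested, with array weights and with only the T1 arrays, and for Kif24 without both B10 arrays of replicate 3 (0.56). The T1 call of Kif24 ended on omission of 5 arrays (NOD_T0 1, NOD_T1 3, B10_T0 1 and both of B10_T1, 0.53 to 0.70) and its T0 call on omission of NOD_T0 replicate 3 or B10_T0 replicate 1 or 2 (0.47 to 0.58).

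**Figure D5:**
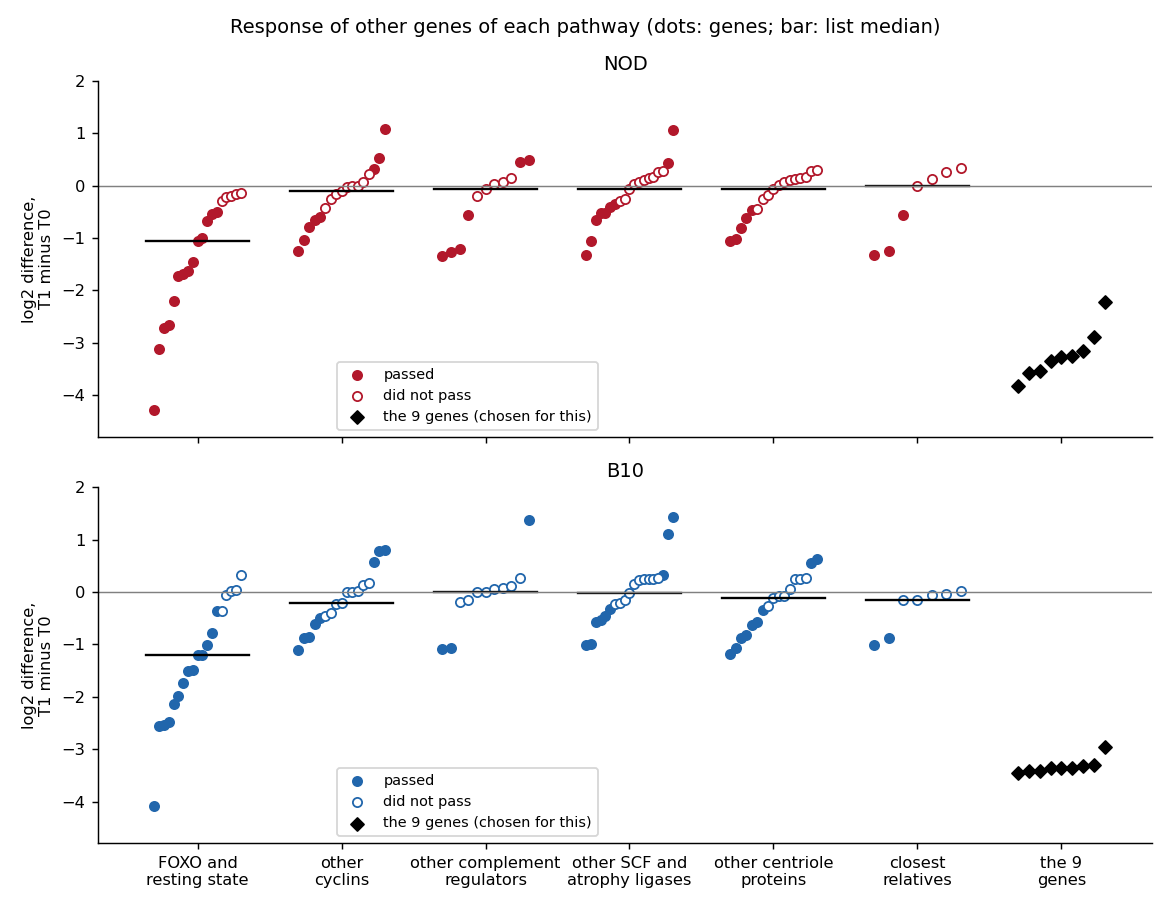
Log2 difference T1 minus T0 (vertical axis) of every measured gene of 6 lists (dots, filled where the adjusted p is under 0.05) and of the 9 genes (diamonds), in NOD above and B10 below, with a bar at each list's median. The FOXO and resting state list has its median at -1.06 in NOD and -1.20 in B10, and the medians of the other lists lie between -0.20 and 0.01. The lists were chosen with earlier results of these data known.

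The closest relatives of the 9 genes were counted as well. Nothing is read from their depth beside the 9, which were chosen for steep falls. Of 7 measured, 0 rose and 3 fell in NOD (median -0.0093), and 0 rose and 2 fell in B10 (median -0.14). The fallen ones were Ccng1, Fbxo25 and, in NOD, Cd55b. Fam78b, Rflna, Tcp11 and Tcp11l1 did not pass in either strain (values of -0.01 to 0.34 in NOD and of -0.15 to 0.03 in B10).

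Markers of other cell types fell beside the 9 genes. All 9 monocyte and macrophage markers fell in both strains, with summed intensities (not log) of 1707 to 2113 in stimulated NOD cells, against 5349 to 6313 in unstimulated ones, and 1607 to 1719 against 4318 to 5104 in B10. Of 8 B cell markers, 8 fell in NOD (888 to 906 at T1, against 3088 to 3773 at T0) and 6 in B10 (1053 to 1130 against 2753 to 3323). Neutrophil markers (9 measured) gave 7 that fell in NOD (444 to 545 against 1209 to 1584) and 5 in B10 (423 to 427 against 715 to 1032). CD8 T and NK cell markers (8 measured) gave 3 that fell in NOD (616 to 633 against 695 to 739) and 4 in B10 (716 to 886 against 968 to 1254). None of 6 erythroid markers passed in either strain (9860 to 12820 against 8982 to 13474 in NOD, and 1266 to 5407 against 884 to 5018 in B10). Among 7 CD4 T cell markers, 1 was called higher and 4 lower at T1 in NOD (5581 to 6854 against 11290 to 12131), and 0 higher and 4 lower in B10 (7010 to 7136 against 12260 to 12528). The part of other cells in the falls of the 9 genes was not tested.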

How the data were processed

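RNA of 10 samples was hybridised to 10 Affymetrix mouse gene arrays. RMA and Affymetrix Power Tools are named in the submitters' processing notes as what the authors used, and the table they deposited is in log2 intensity; version and options are not given in the sources used here, and the log base was read from the range of the values. The table holds 35486 probe sets, of which 21789 have 1 gene symbol, 1621 several and 12076 none listed. The probe set with the highest mean stood for each of 19938 genes, with symbols updated through RefSeq (91 probe sets had an identifier not found there).

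With 1 mean for each of 4 groups, all 10 arrays entered one fit in limma 3.58.1 in R 4.3.3 (6 residual and 6.305 prior degrees of freedom, two-sided, Benjamini-Hochberg over all genes in each of 5 contrasts, threshold 0.05). The procedure was tested on simulated data. The 9 genes, the 6 lists of related genes, the 6 marker lists and the 3 motifs were chosen with earlier results of these data known. Besides the 9 genes and list members, the text names the closest outside gene of each and those with falls as large in both strains, with the neighbours of Tcp11l2 in rank. The fit holds no block for replicate numbers. The few arrays limit precision. The erythroid covariate and the omission of both B10 arrays of replicate 3 were added after the data were seen. Figures were drawn with matplotlib 3.10.9.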

Additional observations from a re-analysis of the deposited data

Results flagged for a closer look

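The response of Cr2 to stimulation differed between strains. Cr2 had 8.38 in stimulated NOD cells against 8.45 in unstimulated ones, and 8.82 in stimulated B10 cells against 7.45 in unstimulated ones (group means, log2). The response in NOD minus that in B10 was -1.44 (limma, adjusted p = 0.0466), and at T0 Cr2 was higher in NOD by 1.00 (limma, adjusted p = 0.00333), a call that ended with the erythroid covariate (1.21). The interaction call ended on omission of any array but NOD_T0 replicate 2 (-1.54 to -1.26), and also with a 75th percentile scaling, with array weights, with all probe sets tested, and without both B10 arrays of replicate 3. Of 8 B cell markers, 8 fell in NOD and 6 in B10, and their part in this difference was not tested.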

How the results depend on the processing

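Alternatives were a 75th percentile scaling, a filter on low levels, every probe set, averaging a gene's probe sets, trend and robust moderation, array weights, only the arrays compared, the replicate block, omission of each array, and the erythroid covariate and omission of both B10 arrays of replicate 3, which were chosen after the data were seen. The cause of the changes below was not tested, apart from fewer arrays where arrays were left out.

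The 75th percentile scaling moved the median response of all genes to 0.207 in NOD (0.081 as deposited) and 0.0974 in B10 (0.031 as deposited). Genes that changed after stimulation numbered 7085 in NOD (5915 to 7071 on omission of 1 array, 6039 to 9561 under other settings) and 6342 in B10 (5376 to 6596, and 4876 to 9276). At T0, 1155 genes differed between strains (571 to 1306 on omission), 2316 with array weights and 148 with the erythroid covariate. The 9 genes gave 0 calls there (0 to 1 on omission), 1 with trend and robust moderation, 3 with array weights and 1 with only the arrays compared. At T1, 718 genes differed (184 to 889 on omission), 292 with array weights, 128 with only the arrays compared and 140 with the erythroid covariate. The 9 gave 1 call (0 to 2 on omission) and 0 with only the arrays compared or the erythroid covariate. For the difference of responses, 49 genes were called (13 to 69 on omission), 31 with the 75th percentile, 102 with trend and robust moderation, 31 with array weights and 85 with the erythroid covariate, and of the 9 genes 0 (0 to 1 on omission).

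Signs turned only in values that did not pass in the fit as reported. On omission of 1 array, NOD minus B10 at T0 ran over -0.16 to 0.063 for Cep97 and -0.012 to 0.20 for Tdrp. At T1 it ran over -0.062 to 0.29 for Fbxo32, -0.17 to 0.42 for Rflnb and -0.60 to 0.022 for Tmem71. The difference of responses ran over -0.15 to 0.079 for Cd55, -0.071 to 0.35 for Ccng2 and -0.43 to 0.19 for Tmem71. Responses in B10 ran over -0.25 to 0.13 for Foxo1, -0.15 to 0.065 for Tcp11l1, -0.085 to 0.098 for Rflna, -0.34 to 0.052 for Cd55b and -0.00032 to 0.11 for Cep290. Those in NOD ran over -0.23 to 0.045 for Cr2, -0.26 to 0.24 for Tcp11, -0.19 to 0.25 for Ccp110, -0.39 to 0.0090 for Foxo1 and -0.0040 to 0.31 for Cep76. With the erythroid covariate, T0 differences turned for Tdrp (-0.21), Cd55 (-0.089) and Tcp11l2 (-0.23), T1 differences for Rflnb (-0.13), Cd55 (-0.077) and Fam78a (-0.12), and the difference of responses for Cd55 (0.011). With the 75th percentile, the difference of responses turned for Cd55 (0.022), the B10 response for Foxo1 (0.0057), Tcp11 (0.0021) and Tcp11l1 (0.027), and the NOD response for Cr2 (0.056) and Tcp11 (0.12). With array weights it turned for Rflna in B10 (-0.017) and for Tcp11 (0.0018) and Ccp110 (-0.11) in NOD. Without both B10 arrays of replicate 3, Cep97 at T0 was 0.063 and Rflna in B10 was -0.084.

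Replicate numbers recur across groups. Nothing in the labels says that a number marks shared animals or days, and not every pair correlated above 0.1, so the numbers were not taken to pair the arrays: deviations of T1 and T0 arrays of 1 number correlated at -0.0145 and 0.219 in NOD and at 0.413 and 0.404 in B10, and between strains at -0.219 to 0.0496. Within B10 the same-numbered arrays did vary together, and the mean erythroid level followed the number in both strains. In NOD it was 10.07 (T0) and 10.22 (T1) for replicate 2, and 10.69 and 10.64 for replicate 3. In B10 it was 6.97 and 7.43 for replicate 2, and 9.29 and 9.39 for replicate 3. A shared source of same-numbered arrays was not tested. With a fixed replicate block the genes called, NOD minus B10 at T0, numbered 1212, with 923 at T1 and 50 for the difference of responses, with 0, 1 and 0 of the 9, and the response of Cr2 in NOD was 0.0020. With strain and number as a random replicate block, 0, 1 and 0 of the 9 were called, and Tcp11l2 at T1 was 1.28 (limma, adjusted p = 0.005). With 2 or 3 arrays a group, small differences cannot be resolved.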
